A study of Mus musculus with 8 samples.

Results

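The heat shock chaperone genes described here are a list of 10: the heat-inducible HSP70 genes Hspa1a and Hspa1b, the constitutive HSP70 gene Hspa8, the HSP110 gene Hsph1, the cochaperone gene Dnajb1, the cytosolic HSP90 genes Hsp90aa1 and Hsp90ab1, the small heat shock protein gene Hspb1, the mitochondrial cochaperonin gene Hspe1 and the endoplasmic reticulum chaperone gene Hspa5. They were found among the 55681 non-control probes of the array through the RefSeq accession that a probe carries. Of the 10 genes, 9 had a probe, 14 probes in all, and all 9 were tested among 24025 features. No probe carried the accession of Hspa1b, whose transcript was not analysed here.

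RNA of the hippocampus was labelled with the dye Cy3 and measured on 8 one-colour arrays; 4 held RNA of Ts1Cje and 4 of wild-type animals, 3 months old and C57BL6/J by their labels. Ts1Cje mice are a model of Down syndrome with an additional copy of distal chromosome 16 from Sod1 onward, in which 1 copy of Sod1 is disrupted, and they lack the end of 1 chromosome 12. The wild-type animals were littermates, and no other treatment or transgene is named in the labels, which also give no sex. All 8 arrays lay on 1 slide, with the wild-type arrays in columns 1 and 3 and the Ts1Cje arrays in columns 2 and 4, and the effect of a column cannot be told apart from that of genotype. Replicates 1 and 2 lay in row 1 and replicates 3 and 4 in row 2. On each array 59.9% to 63.1% of non-control probes were well above background and no spot was saturated, and the number of arrays limits the precision. None of the 10 chaperone genes lies in either altered segment. Hsp90aa1, on chromosome 12, lies proximal to the deleted end in gene order.

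Molecular chaperones bind unfolded proteins and help them fold, refold or be degraded. HSP70 proteins cycle with ATP, J-domain proteins such as the product of Dnajb1 stimulate that cycle, HSP110 proteins exchange the nucleotide, and HSP90 takes over clients such as kinases and steroid receptors. Transcription of the inducible cytosolic genes is driven by heat shock factor at heat shock elements, whereas the gene for the reticulum chaperone BiP, Hspa5, is driven by the unfolded protein response. In the brain, Hspa8 and the HSP90 genes are abundant in neurons, and Hspb1 is known from glia, vessels and stressed neurons.

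Promoters were searched for the listed genes and for the reticulum genes below whose signals followed that of Hspa5. Not every searched promoter is printed. Whether the motifs bear on the co-variation described below was not tested. Of the 10 genes, 7 had a promoter in the RefSeq table of build GRCm38.p6 used here. In each, the 250 bases before the annotated start were searched on both strands for 2 adjoining units of the heat shock element (GAANNTTC or TTCNNGAA), for 3 units (both of these sharing their middle unit, in either order, so that each 3-unit match also holds both 2-unit motifs), and for the endoplasmic reticulum stress element (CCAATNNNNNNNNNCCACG, reverse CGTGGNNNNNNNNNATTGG). Capitals mark the matches in the last 150 bases before the start, with the 5′ end on the left.
Hspe1, chr1:55087998-55088147, plus strand: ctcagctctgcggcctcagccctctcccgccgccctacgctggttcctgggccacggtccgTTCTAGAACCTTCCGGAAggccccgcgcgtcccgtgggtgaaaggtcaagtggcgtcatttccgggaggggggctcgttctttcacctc
Hspb1, chr5:135887769-135887918, plus strand: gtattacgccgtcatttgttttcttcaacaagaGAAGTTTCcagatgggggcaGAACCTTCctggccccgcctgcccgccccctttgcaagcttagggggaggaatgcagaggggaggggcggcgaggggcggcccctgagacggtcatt
Hspa1a, chr17:34972157-34972306, minus strand: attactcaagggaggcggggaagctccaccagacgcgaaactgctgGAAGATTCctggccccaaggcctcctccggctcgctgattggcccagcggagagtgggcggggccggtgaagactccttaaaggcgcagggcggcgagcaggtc
Hspa1b, chr17:34959239-34959388, minus strand: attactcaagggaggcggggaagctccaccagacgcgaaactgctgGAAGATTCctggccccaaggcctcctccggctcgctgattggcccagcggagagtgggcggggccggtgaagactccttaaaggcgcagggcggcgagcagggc
Hspa5, chr2:34771940-34772089, plus strand: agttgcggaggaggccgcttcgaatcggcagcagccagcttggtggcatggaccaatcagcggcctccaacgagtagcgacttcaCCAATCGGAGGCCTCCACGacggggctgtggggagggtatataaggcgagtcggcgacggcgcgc
Pdia6, chr12:17266439-17266588, plus strand: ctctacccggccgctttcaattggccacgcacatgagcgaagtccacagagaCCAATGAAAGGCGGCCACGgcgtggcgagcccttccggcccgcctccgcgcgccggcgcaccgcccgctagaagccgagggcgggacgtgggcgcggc
Creld2, chr15:88819496-88819645, plus strand: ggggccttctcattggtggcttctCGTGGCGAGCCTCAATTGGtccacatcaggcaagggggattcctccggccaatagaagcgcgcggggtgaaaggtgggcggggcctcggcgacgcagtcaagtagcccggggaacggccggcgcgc
Hspe1 held the 3-unit heat shock motif, which 0.466% of 32851 promoter windows hold. Hspb1 held GAANNTTC at 2 places and Hspa1a and Hspa1b each at 1 place, against 6.69% of all windows. Hsph1 held TTCNNGAA, against 7.17% of all windows. Dnajb1 held none of these motifs in the window of either of its start sites. Of the 250 bases, 247 were identical between Hspa1a and Hspa1b without gaps. Hspa5 held the stress element, which 0.113% of all windows hold, and so did Pdia6 and Creld2. Of the 5 reticulum genes described below whose signals followed that of Hspa5, 4 had a promoter in the table, and the other two, Sdf2l1 and Dnajb11, held no match. A match describes these letters and is not a measured binding site.

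The first question was whether the chaperone transcripts differed between Ts1Cje and wild-type hippocampus. None of the 9 tested genes passed (limma, Benjamini-Hochberg adjusted p of 0.05 over all features), where 0.196% of all features did, and adjusted p ranged from 0.682 for Hspa8 to 0.951 for Hspa1a. On the brightest probe of each gene, in the fit without a replicate term, none had an unadjusted p under 0.05 either, against 8.73% of all features. In none were the 2 groups of arrays free of overlap, against 6.12%. A dimmer probe of Hspa8, described below, had no overlap and an unadjusted limma p of 0.0056. All 9 differences, Ts1Cje minus wild-type, were below 0, as were 52.7% of all features. Their median was -0.06 on the log2 scale, against -0.0072 for all features. Within slide row 1 and row 2, Hspa5 stood at -0.27 and -0.14, Hspb1 at -0.18 and -0.20, and Hspa8 at -0.16 and -0.04. Values are log2 signals after subtraction of each array's own 75th percentile, and a signal of 1 gene's probe cannot be set against that of another. In RNA from whole tissue, fewer cells of a type and less RNA per cell cannot be told apart.

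**Figure D1:**
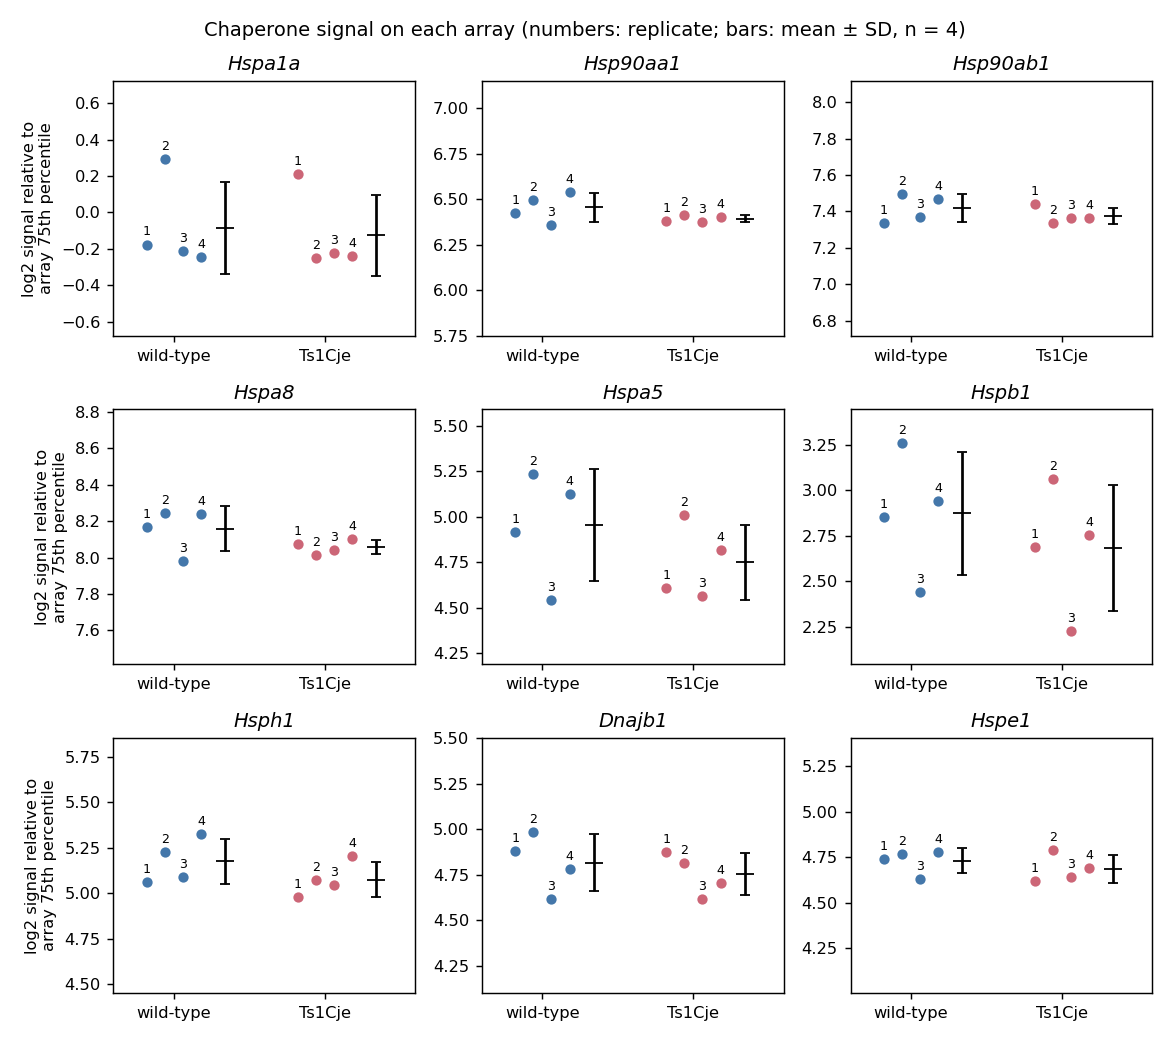
Log2 signal of the 9 measured chaperone genes, minus each array's 75th percentile, for the 4 wild-type and 4 Ts1Cje arrays. Points are single arrays with their replicate number, bars are mean ± SD (n = 4), and every panel spans the same log2 range. The wild-type arrays spread most in Hspb1 and Hspa5, with SDs of 0.34 and 0.31, and in Hspa1a wild-type replicate 2 and Ts1Cje replicate 1 lie apart from the other 6 arrays.

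Hspa1a encodes an HSP70 that is scarce in unstressed cells and strongly induced by heat and proteotoxic stress. Its signal was -0.18, 0.29, -0.21 and -0.25 on wild-type replicates 1 to 4, and 0.21, -0.25, -0.22 and -0.24 on Ts1Cje replicates 1 to 4. Wild-type replicate 2 and Ts1Cje replicate 1 were high, and the other 6 arrays lay close together. The groups overlapped, with a difference of -0.04 (95% interval -0.39 to 0.31; limma adjusted p = 0.951). The sign turned without wild-type replicate 2, to 0.086, and without Ts1Cje replicate 2, to 0.0013. Whether this probe also binds transcripts of the near-identical Hspa1b was not tested.

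Hspa8 encodes the constitutive HSC70, which also uncoats clathrin vesicles. Its brightest probe read 8.17, 8.25, 7.98 and 8.24 in wild-type and 8.08, 8.01, 8.04 and 8.10 in Ts1Cje. Wild-type replicate 3 was the lowest of all 8 arrays, and the other 3 wild-type arrays lay above every Ts1Cje array. The difference was -0.10 (95% interval -0.26 to 0.06; limma adjusted p = 0.682). A second probe gave -0.07. The third gave -0.18 (95% interval -0.29 to -0.07; limma adjusted p = 0.353 with every probe as a feature). On that probe the 4 wild-type arrays, at 5.18 to 5.27, lay above the 4 Ts1Cje arrays, at 4.99 to 5.10.

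Hsph1 encodes an HSP110 that acts as a nucleotide exchange factor for HSP70. Its signal was 5.06, 5.23, 5.09 and 5.33 in wild-type and 4.98, 5.07, 5.05 and 5.20 in Ts1Cje. Replicate 4 was the highest array of each group. The difference was -0.10 (95% interval -0.28 to 0.08; limma adjusted p = 0.711), and its other probe gave -0.10 as well.

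Dnajb1 encodes the HSP40 that delivers substrates to HSP70. It stood at 4.88, 4.99, 4.62 and 4.78 in wild-type and at 4.88, 4.81, 4.62 and 4.70 in Ts1Cje. Replicates 3 of both groups were the lowest arrays, at the same value to 2 decimals. The difference was -0.06 (95% interval -0.27 to 0.15; limma adjusted p = 0.855).

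Hsp90aa1, the inducible HSP90 gene, read 6.43, 6.50, 6.36 and 6.54 in wild-type and 6.38, 6.41, 6.38 and 6.40 in Ts1Cje. The Ts1Cje arrays lay within the wild-type range, with an SD of 0.02 against 0.08. Its difference was -0.06 (95% interval -0.18 to 0.06; limma adjusted p = 0.732). Hsp90ab1, the constitutive HSP90 gene, read 7.34, 7.50, 7.37 and 7.47 in wild-type and 7.44, 7.33, 7.36 and 7.36 in Ts1Cje. The groups overlapped, and Ts1Cje replicate 1 was the highest of its group, as it was in Hspa1a. The difference of Hsp90ab1 was -0.04 (95% interval -0.17 to 0.08; limma adjusted p = 0.821).

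Hspb1 encodes HSP25, the mouse form of HSP27, a small heat shock protein that holds unfolded proteins and binds actin. Its signal was 2.85, 3.26, 2.44 and 2.94 in wild-type and 2.69, 3.06, 2.23 and 2.76 in Ts1Cje. Replicate 2 was the highest and replicate 3 the lowest array in each group. The array-to-array range of 1.03 was larger than the genotype difference of -0.19 (95% interval -0.68 to 0.29, limma adjusted p = 0.800). Part of that range was shared by same-numbered arrays. With the replicate number as a block, the SE of the difference was 0.04 in place of 0.21 (limma adjusted p = 0.305). The SD of Hspb1 over 8 arrays, 0.33, exceeded that of 91.4% of all features.

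Hspa5 encodes BiP, the HSP70 of the endoplasmic reticulum and a sensor partner of the unfolded protein response. It stood at 4.91, 5.24, 4.54 and 5.13 in wild-type and at 4.61, 5.01, 4.56 and 4.82 in Ts1Cje. As in Hspb1, replicate 2 was the highest and replicate 3 the lowest array in each group. Its difference was -0.21 (95% interval -0.58 to 0.17, limma adjusted p = 0.725), and its SD of 0.27 exceeded that of 84.7% of features. With the replicate number as a block, the SE of the difference was 0.07 in place of 0.16 (limma adjusted p = 0.428).

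Hspe1 encodes the mitochondrial HSP10, the lid of the HSP60 chaperonin. The brightest of its 3 probes read 4.74, 4.77, 4.63 and 4.78 in wild-type and 4.62, 4.79, 4.64 and 4.69 in Ts1Cje. Its SD over the 8 arrays was 0.07, lower than that of most features, whose median is 0.12. The difference was -0.05 (95% interval -0.18 to 0.09; limma adjusted p = 0.831), and the other probes gave -0.0064 and -0.12. Its partner Hspd1, the HSP60 gene, stood at -0.08 (SE 0.05; limma adjusted p = 0.655).

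**Figure D2:**
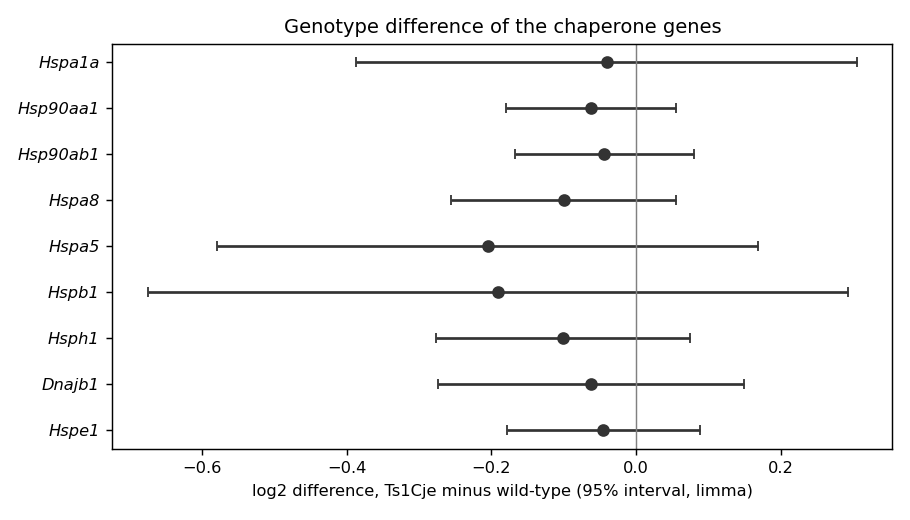
Difference in log2 signal, Ts1Cje minus wild-type, of the 9 chaperone genes, with the moderated 95% interval of the limma fit (4 arrays against 4). All 9 points lie below 0 and all 9 intervals hold 0, the widest being those of Hspb1, Hspa5 and Hspa1a.

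The intervals give the precision of each difference in the fit without a replicate term. For Hsp90aa1, Hsp90ab1 and Hspe1 they ran from 0.88-fold, 0.89-fold and 0.88-fold to 1.04-fold, 1.06-fold and 1.06-fold of the wild-type signal. Those of Hspb1 and Hspa5 ran from 0.63-fold and 0.67-fold to 1.23-fold and 1.12-fold. They depend on that fit. With the replicate number as a block, the SEs of Hspb1 and Hspa5 were 0.04 and 0.07 in place of 0.21 and 0.16. Those of Hspa1a and Hsp90ab1 were not smaller, at 0.154 and 0.060 in place of 0.151 and 0.054.

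The second question was how the chaperone genes varied from array to array. Of the 36 pairs of the 9 genes, 34 had a Pearson correlation above 0 over the 8 arrays. Their median r was 0.65, against 0.01 over all pairs of features, which were not matched to these genes in signal level. An r of 0.7 or more was reached by 11 pairs, 30.6%, against 4.62% of all feature pairs. All values on an array share its RNA extract, its hybridisation and its scaling. After subtraction of the genotype means the median r was 0.59, and after subtraction of the means of the 2 slide rows it was 0.77. Within the 4 wild-type arrays the median r was 0.76, and within the 4 Ts1Cje arrays it was 0.19.

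**Figure D3:**
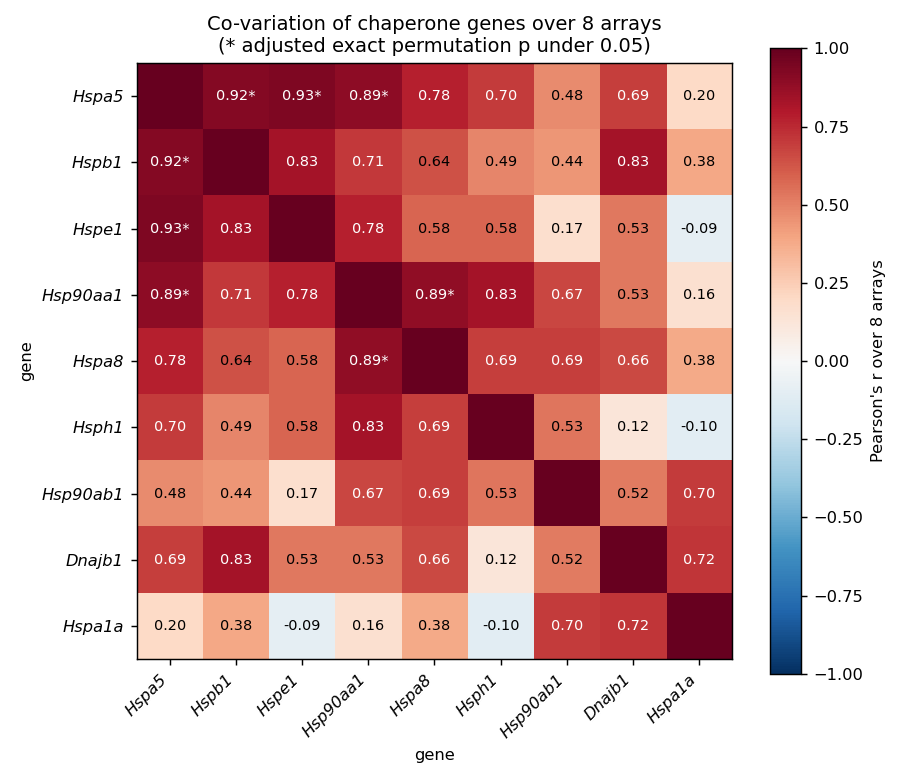
Pearson's r over the 8 arrays for each pair of the 9 measured chaperone genes, with colour from -1 (blue) to 1 (red). Asterisks mark the 4 pairs with an adjusted exact permutation p under 0.05. Hspa5, Hspb1, Hspe1 and Hsp90aa1 form the block of high values, and the row of Hspa1a is pale except at Dnajb1 and Hsp90ab1.

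Of the 4 pairs that passed, 3 held Hspa5. Its r with Hspb1 was 0.92 (two-sided exact permutation p = 0.00084, adjusted over 36 pairs 0.020), and Spearman's rho was 0.95 (exact p = 0.0011, adjusted 0.021). With Hspe1 it was 0.93 (exact permutation p = 0.0027, adjusted 0.026), with rho 0.83 (exact p = 0.015, adjusted 0.092). With Hsp90aa1 it was 0.89 (exact permutation p = 0.0011, adjusted 0.020), with rho 0.95 (exact p = 0.0011, adjusted 0.021). These 3 relations held at 0.85, 0.95 and 0.94 without the 2 arrays farthest from the median of the first gene of each pair. They also held within each genotype, at 0.92 to 0.97 in wild-type and 0.89 to 0.99 in Ts1Cje, over 4 arrays each.

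The fourth pair was Hsp90aa1 and Hspa8, with r of 0.89 (exact permutation p = 0.0029, adjusted 0.026) and rho of 0.83 (exact p = 0.015, adjusted 0.092). It fell to 0.68 without wild-type replicates 2 and 4. Within wild-type it was 0.93 and within Ts1Cje -0.23, and the difference between the groups was not tested. This relation is that of the brightest Hspa8 probe. On wild-type replicate 3, where Hsp90aa1 was lowest at 6.36, the third Hspa8 probe was highest, at 5.27. On the second Hspa8 probe the same array was the lowest of wild-type, at 6.73. No pair was tested on the dimmer probes of a gene. Another 6 pairs had an unadjusted exact permutation p under 0.05 and did not pass after adjustment.

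Hspa1a did not follow Hspa5. Its r was 0.20 with Hspa5, -0.09 with Hspe1 and -0.10 with Hsph1, none past the test. The highest were 0.72 with Dnajb1 (exact permutation p = 0.051, rho 0.50, p = 0.22) and 0.70 with Hsp90ab1 (exact permutation p = 0.054, rho 0.48, p = 0.24). Both rest on 2 arrays: without wild-type replicate 2 and Ts1Cje replicate 1 they became 0.17 and -0.40. The named genes with the pattern most like that of Hspa1a over the 8 arrays, among 3019 whose SD is at least 0.2, were Olfr414, Ifi204, Dio3os, Gm826 and Hgfac, with r of 0.87 to 0.93. All 5 gave dim signals, at -2.38 to -4.54 on average.

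On the brightest probe of each gene, wild-type replicate 2 stood above the mean over 8 arrays in all 9 genes. Wild-type replicate 3 and Ts1Cje replicate 3 stood below it in all 9. Wild-type replicate 4 was above it in 7, wild-type replicate 1 in 6, Ts1Cje replicate 2 in 4, Ts1Cje replicate 1 in 3 and Ts1Cje replicate 4 in 1. Dimmer probes did not all follow. Wild-type replicate 3 was the highest of the 8 arrays on the third Hspa8 probe, at 5.27, and the lowest on a dimmer Hspe1 probe, at 4.19. The 2 arrays of replicate 3 also had the highest 75th percentiles, 9.32 and 9.25 in log2 signal against 9.08 to 9.19 on the others. Immediate early genes, which respond to neuronal activity and handling, were lowest on the same 2 arrays, with list means of 0.17 and 0.16 against 0.27 to 0.77. The part of these measures in the co-variation was not tested.

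Because 3 of the passing pairs held Hspa5, its relation to 29 other genes of endoplasmic reticulum folding and the unfolded protein response was examined, a comparison chosen after the values of the chaperone genes were seen. Co-variation with Hspa5 passed for 5 of the 29, adjusted over 80 such relations. Pdia6, a disulfide isomerase, had r of 0.98 (two-sided exact permutation p = 0.00025, adjusted 0.0093; rho 0.90). Sdf2l1, a partner of BiP, had r of 0.96 (exact permutation p = 7.4e-05, adjusted 0.0060; rho 0.98). Dnajb11, a J-domain cochaperone of BiP, had r of 0.94 (exact permutation p = 0.00047, adjusted 0.0094; rho 0.90). Manf, a secreted neurotrophic factor of the reticulum, had r of 0.92 (exact permutation p = 0.00035, adjusted 0.0093; rho 0.95), and Creld2 had r of 0.87 (exact permutation p = 0.0032, adjusted 0.042; rho 0.90). By Spearman's rho, 2 of these 5 passed after adjustment, Sdf2l1 (exact p = 0.00040, adjusted 0.032) and Manf (exact p = 0.0011, adjusted 0.046).

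Without the 2 arrays farthest from the median of Hspa5, these 5 stood at 0.73 to 0.97. The signal of Sdf2l1, chosen here for its r with Hspa5, was -0.28, 0.46, -0.57 and 0.14 in wild-type and -0.35, 0.04, -0.48 and -0.25 in Ts1Cje. As in Hspa5 and Hspb1, replicate 2 was the highest and replicate 3 the lowest array in each group. Sdf2l1 and Dnajb11 lie on chromosome 16, proximal to Sod1 and so outside the triplicated segment. The median r of the 29 genes with Hspa5 was 0.43, with 20 above 0, against 0.11 over all features. An r of 0.7 or more was reached by 9 of the 29, and by 5.71% of all features. Other lists had medians as high: 0.52 for the 23 immediate early genes and 0.48 for the 9 microglia markers, and the immediate early genes had a median of 0.53 with Hspb1. Of the 24 genes of this list with a promoter in the table, 7 held the stress element. Manf, Creld2 and Sdf2l1 were among the 5 named genes most like Hspb1 of 3019 ranked, at r of 0.96, 0.91 and 0.91. That ranking was added after the values were seen. Hspb1 itself followed Hspa5 on these arrays, at r of 0.92, so the likeness is not separate from the relation of these 3 genes to Hspa5.

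**Figure D4:**
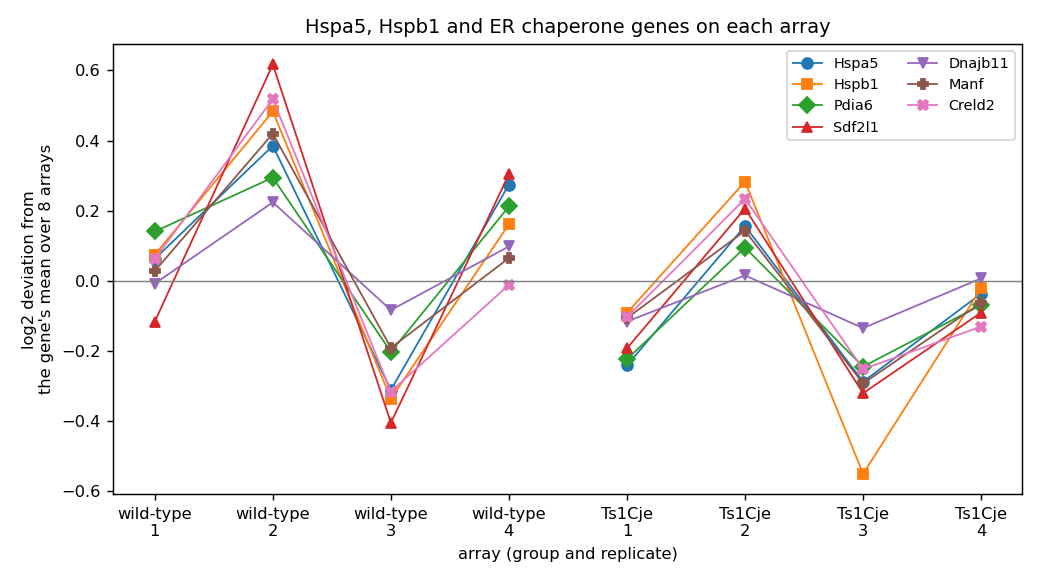
Deviation of log2 signal from each gene's mean over the 8 arrays, for Hspa5, Hspb1 and the 5 endoplasmic reticulum genes whose co-variation with Hspa5 passed. Lines join the arrays of a group for reading only, since replicates have no order. All 7 genes are above 0 on replicate 2 and below 0 on replicate 3 of both groups. The 5 reticulum genes were chosen for following Hspa5 on these same arrays, so their likeness to it follows from that choice.

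The cochaperones of HSP90 and HSP70 were set beside Hsp90aa1. Of 28 tested, St13, the HSP70-interacting protein Hip, passed with r of 0.87 (exact permutation p = 0.0032, adjusted 0.042 over the same 80 relations; rho 0.86, exact p = 0.011, adjusted 0.12). Bag3, an HSP70 nucleotide exchange factor, had r of 0.81, and Ahsa1, the activator of the HSP90 ATPase, had r of 0.80, with adjusted exact permutation p of 0.21 and 0.19. The median over the 28 was 0.26, against 0.11 over all features, and 5 of the 28 had an r of 0.7 or more, against 4.61% of all features. None of 23 immediate early genes passed with Hspa1a (lowest unadjusted exact permutation p = 0.058, for Jun with r of 0.67). Their relations to Hspa5 and Hspb1, with median r of 0.52 and 0.53, were not tested, so this is no counterpart to the reticulum genes.

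Between the genotypes, no gene of the wider chaperone lists passed. Among 29 genes of the reticulum list 24 were below 0, with a median of -0.09. Pdia4, a disulfide isomerase, stood at -0.28 (SE 0.07; limma adjusted p = 0.283), and Trib3, a pseudokinase induced by the stress response, at 0.32 (SE 0.05; limma adjusted p = 0.066). These 2 were named for the smallest p of the list in each direction, and that neither had overlapping groups goes with this choice. The groups did not overlap in 3 of the 29 genes, against 6.12% of all features. Trib3 was -2.02, -2.14, -2.07 and -2.18 in wild-type and -1.75, -1.80, -1.82 and -1.75 in Ts1Cje. All 15 genes of the cytosolic chaperonin and prefoldin, which fold actin and tubulin, were below 0, with a median of -0.09 and Cct3 at -0.13 (SE 0.05; limma adjusted p = 0.506). The mean over these 15 genes lay at 2.58 to 2.65 on the wild-type arrays and 2.49 to 2.52 on the Ts1Cje arrays.

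Of the 23 immediate early genes 20 were below 0, with a median of -0.13, further from the median of all features than that of any chaperone list. Gadd45g, a stress and activity response gene, stood at -0.32 (SE 0.08, limma adjusted p = 0.341) with no overlap of the groups. Npas4, an activity-dependent transcription factor, stood at 0.44 (SE 0.22, limma adjusted p = 0.621). Both were named for the smallest p in their direction. Of the 23 genes, 1 had no overlap, against 6.12% of all features. The other chaperone lists lay nearer the median of all features. Cochaperones had 20 of 28 genes below 0 and a median of -0.03, with Cdc37, the kinase-specific cochaperone of HSP90, at -0.12 (SE 0.05; limma adjusted p = 0.584). J-domain genes had 14 of 30 below 0 and a median of 0.0020, with Dnajc11 at -0.11 (SE 0.05; limma adjusted p = 0.569). Medians were -0.00061 for 9 other HSP70 genes, 0.01 for 8 other small heat shock genes and 0.0037 for 12 other mitochondrial chaperones. The 6 heat shock factor genes and regulators had a median of -0.0074. Hsf1, the master factor of the response, stood at -0.02 (SE 0.08; limma adjusted p = 0.956). Dnajc28, a J-domain gene of the triplicated segment, stood at 0.32 (SE 0.19; limma adjusted p = 0.647).

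Markers of the cells that the tissue holds were set beside these genes. All 11 markers of hippocampal neurons were tested, with list means of 2.31 to 2.43 in wild-type and 2.34 to 2.40 in Ts1Cje. Of these 5 were above 0 and 6 below. Wfs1 stood at 0.30 (SE 0.07, limma adjusted p = 0.222) with no overlap of the groups, and Prox1 at -0.13 (SE 0.07, limma adjusted p = 0.625). Both were named for the smallest p in their direction. Of the 11 neuron markers, 1 had no overlap, against 6.12% of all features. None of the 69 tested marker genes of all 8 lists passed between genotypes. List means of endothelium lay at 1.16 to 1.33 in wild-type and 1.17 to 1.49 in Ts1Cje, highest on Ts1Cje replicate 1. Astrocyte means lay at 4.05 to 4.17 and 3.99 to 4.13, microglia at 2.92 to 3.09 and 2.93 to 3.07, oligodendrocytes at 3.85 to 4.05 and 3.88 to 4.04, ependyma at 0.35 to 0.72 and 0.05 to 0.45, and blood at -2.16 to -0.92 and -2.28 to -0.99, in wild-type and Ts1Cje. Of the 6 ependyma markers 5 were below 0 and 1 above, with a median of -0.32. Among them Tmem212, named for the smallest p of the list, stood at -0.73 (SE 0.15, limma adjusted p = 0.181) with no overlap of the groups. Of the 6 ependyma markers, 1 had no overlap. Of the 8 choroid plexus markers, Clic6 at 0.74 (SE 0.24; limma adjusted p = 0.446) and Kcne2 at 0.64 (SE 0.22; limma adjusted p = 0.486) lie in the triplicated segment, and Otx2 stood at -0.77 (SE 0.29; limma adjusted p = 0.509). Without the 2 triplicated genes the choroid plexus means lay at -1.86 to -1.25 in wild-type and -1.85 to -1.57 in Ts1Cje. The blood means were highest on the replicate 2 arrays, at -0.92 and -0.99, where Hspb1 was highest too, and its part was not tested.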

How the data were processed

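Total RNA of hippocampus was labelled with Cy3 from 0.1 µg and hybridised to Agilent one-colour arrays, per the labels' protocols. The deposited values are spot intensities written by Agilent Feature Extraction 10.10.1.1, per the file headers, with the background already subtracted in the processed signal. The log2 processed signal minus the 75th percentile of the array was computed here. A probe stayed in when every array of 1 genotype or of both had it well above background (32596 of 55681), and the brightest probe stood for a gene, giving 24025 features, 15089 of them named. RefSeq accessions were matched to symbols through a table of assembly GRCm38.p6 (27235 probes, 20660 symbols); the probe design names build mm9, so chromosomes but no gene coordinates are given for the probes. Groups were compared with limma 3.58.1 (R 4.3.3), with Benjamini-Hochberg adjustment over all features, and the fit was tested on simulated data. Correlations over the 8 arrays used exact permutation of all 40320 pairings (scipy 1.17.1, Python 3.11.15), adjusted over 36 pairs because Hspa1b was not measured.

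The genes and lists were chosen with earlier results of these data known. Named genes were the chaperone genes, of each other list the gene with the smallest p in each direction at most, and the 5 genes most like Hspa1a with an SD of at least 0.2. Hsf1, Hspd1 and Dnajc28 were named for their role, Kcne2 and the genes named for their correlation after values were seen, and the 80 relations to Hspa5, Hsp90aa1 and Hspa1a were chosen after values were seen. The labels number 4 replicates per genotype and the design speaks of littermate pairs without saying that a number marks a pair, so p-values measure the spread between these labelled samples. The alternatives were normexp (offset 50, on median signals, since no mean signal was used here), quantile and median scaling, other probe filters and probe rules, array weights, a robust prior, replicate and slide row blocks, and each array left out.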

Additional observations from a re-analysis of the deposited data

Results flagged for a closer look

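Hspa1a, the inducible HSP70 gene, had 1 array in each group far from the other 3. In wild-type, replicate 2 stood at 0.29 against -0.25 to -0.18, and its gap to the nearest array was 0.869 of the range. In Ts1Cje, replicate 1 stood at 0.21 against -0.25 to -0.22, with a gap of 0.938 of the range, both above Dixon's 95% critical value for 4 samples. These were 2 of 18 sets of 4 arrays examined, where chance gives about 1 in 20, or 0.9 sets. On the same 2 arrays Dnajb1 and Hsp90ab1 were also the highest of their groups.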

How the results depend on the processing

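No chaperone gene passed under any alternative, at an adjusted p of 0.1 included, and the lowest adjusted limma p of any was 0.305, for Hspb1 with the replicate number as a block. Of 189 alternative values, 187 kept sign and side, and the other 2 were those of Hspa1a, 0.086 when wild-type replicate 2 was left out and 0.0013 when Ts1Cje replicate 2 was (range leaving out 1 array -0.15 to 0.086); the cause was not tested. Leaving out 1 array moved other differences by more than 1.5 times without turning them: Hspb1 lay at -0.33 (wild-type replicate 3 left out) to -0.04 (Ts1Cje replicate 3), Hspa5 at -0.34 (wild-type replicate 3) to -0.11 (wild-type replicate 2), Dnajb1 at -0.13 (wild-type replicate 3) to -0.0052 (wild-type replicate 2), Hsp90ab1 at -0.07 (wild-type replicate 1) to -0.02 (wild-type replicate 2), Hspa8 at -0.16 to -0.07, Hsp90aa1 at -0.09 to -0.04, Hsph1 at -0.14 to -0.05 and Hspe1 at -0.08 to -0.02. The count of 47 features past the threshold was 25 with the array median as centre, 23 with no filter on dim probes, 89 with array weights, 71 with a trended and robust prior, 98 at an adjusted p of 0.1, and 0 within each slide row, where each group has 2 arrays. Leaving out 1 array gave 13 to 44, the lowest without Ts1Cje replicate 4. With the replicate number as a block the SE of Hspb1 was 0.04 in place of 0.21 and that of Hspa5 0.07 in place of 0.16, and the count was 1 feature. Same-numbered arrays correlated in their deviations at 0.237, 0.194, 0.106 and 0.0501. Wild-type replicates 1, 2 and 3 each correlated best with the same-numbered Ts1Cje array, and wild-type replicate 4 with Ts1Cje replicate 3. These values do not settle whether a number marks a pair. The numbers were not taken as pairs. Of the called features 89.4% were higher in Ts1Cje, and 78.3% with quantile normalization. The median of all features was -0.0072, and -0.06 with the array median as centre. The median r of the 36 pairs, 0.65, was 0.49 with quantile normalization, 0.59 with normexp and 0.59 with the array median as centre, and lay at 0.49 to 0.70 leaving out 1 array, lowest without wild-type replicate 2.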
